A study of Mus musculus with 17 samples.

Results

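The genes described here are the classical and GPI-anchored cadherins, the non-clustered protocadherins and the large Celsr, Fat and Dachsous cadherins, followed in astrocytes of the cortex and of the sensory thalamic nuclei of the mouse. They were taken by symbol: of 33 listed genes, 32 had a row among the 26556 genes of the count tables, and *Fat2* was not analysed here. The 17 RNA-seq libraries came from FVB mice (FVB/N-Tg in the study's methods) carrying *Gfap::GFP*, a transgene that puts a green fluorescent protein under the *Gfap* promoter, at postnatal day 7 (P7). No group was treated. Each library was made from green cells of 4 pooled brains, sorted by fluorescence after dissection of the somatosensory cortex (S1, 4 libraries), the dorsolateral geniculate nucleus (dLG, 5 libraries), the ventral posteromedial nucleus (VPM, 4 libraries) or the ventral division of the medial geniculate nucleus (MGv, 4 libraries). The dLG, VPM and MGv relay visual, somatosensory and auditory input to the cortex. Since the sorted cells were measured in bulk, fewer cells of a type and less RNA per cell cannot be told apart, and the p-values measure the spread between libraries of pooled brains.

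Cadherins are calcium-dependent adhesion receptors that bind like molecules on the neighbouring cell, and their cytoplasmic tails hold on to catenins and through these to actin. The type I and type II classical cadherins differ in the outermost extracellular repeat, where type I proteins insert a single tryptophan into their partner and type II proteins a pair of them. The delta-protocadherins adhere more weakly and act also through their own cytoplasmic partners, Celsr proteins (the vertebrate counterparts of Flamingo) belong to the planar cell polarity machinery, and Fat4 and Dachsous 1 bind one another across cell borders.

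The stretch that sets type I apart from type II was read from the GENCODE M21 transcripts of GRCm38. The lines give 36 bases (12 codons) for the type I gene *Cdh4* and for 4 type II genes whose levels differed between regions or nuclei. They follow the first predicted furin cleavage pattern that has a tryptophan at position 2 after it. The tryptophan codons are in capitals.
Cdh4: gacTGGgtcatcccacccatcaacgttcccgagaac
Cdh7: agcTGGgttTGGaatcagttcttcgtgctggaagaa
Cdh9: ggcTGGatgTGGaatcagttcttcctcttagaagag
Cdh19: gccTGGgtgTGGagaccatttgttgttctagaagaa
Cdh22: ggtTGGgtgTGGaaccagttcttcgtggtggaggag
These bases lie at chr2:179797560-179797595 (plus strand, exon 4) for *Cdh4*, at chr1:109994321-109994356 (plus strand, exon 2) for *Cdh7*, at chr15:16778257-16778292 (plus strand, exon 2) for *Cdh9*, at chr1:110954596-110954631 (minus strand, exon 2) for *Cdh19* and at chr2:165180937-165180972 (minus strand, exon 2) for *Cdh22*, all within coding sequence. The single tryptophan codon of *Cdh4* stood at position 2 of the mature protein, counted from 1 at the first codon after the pattern. The 4 type II genes had theirs at positions 2 and 4. The other type I gene, *Cdh2*, also had 1 such codon, and all 12 type II genes had 2. The search asked for the tryptophan at position 2, so that position was fixed in advance, and that at position 4 was not. None of the other 18 genes had a furin pattern followed by such a tryptophan. Patterns without it were not searched for.

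All 32 genes passed the filter on low counts. Levels are given in CPM, a gene's count relative to the total of its library after scaling by the trimmed mean of M values (TMM). Library totals before this scaling ran from 18213687 to 50366363 counts, at which 3 counts stand for 0.0596 to 0.165 CPM. Among cell type markers, the 8 of astrocytes had a summed level of 12253 to 13126 CPM in the cortical libraries and 5716 to 14905 CPM in the thalamic ones. The 10 neuron markers summed to 774 to 1016 CPM in cortical and 444 to 1627 CPM in thalamic libraries, and the 7 oligodendrocyte lineage markers to 6625 to 8012 CPM and 6119 to 11113 CPM. By nucleus, the astrocyte markers summed to 7111 to 8620 CPM (dLG), 6054 to 8409 CPM (VPM) and 5716 to 14905 CPM (MGv). The oligodendrocyte lineage markers summed to 7234 to 8904, 6917 to 11113 and 6119 to 7977 CPM, so the ranges of both lists overlapped in each nucleus. The share of cells of each type was not estimated. Microglia markers summed to 4.18 to 13.6 CPM in cortical and 4.20 to 55.5 CPM in thalamic libraries, endothelial and mural markers to 37.7 to 64.5 CPM and 2.36 to 55.6 CPM, fibroblast markers to 18.8 to 31.6 CPM and 9.83 to 32.7 CPM, and ependymal markers to 6.80 to 70.3 CPM and 2.17 to 12.8 CPM. No marker of any list was at 0 in every library. The level of *Gfap*, whose promoter drives the sorting transgene, was far lower in the VPM (8.98 to 19.2 CPM) than the mean of 534 CPM in the dLG, 1862 CPM in the MGv and 494 CPM in the cortex.

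Per kilobase of exon, the highest of the 32 genes was *Pcdh9*, a delta-1 protocadherin, with a mean level of 30.6 CPM per kb over the 17 libraries. The classical cadherins *Cdh2* (N-cadherin, 19.7 CPM per kb), *Cdh11* (16.4 CPM per kb) and *Cdh20* (15.9 CPM per kb) and the GPI-anchored *Cdh13* (T-cadherin, 15.8 CPM per kb), which lacks the cytoplasmic tail, came next. In the cortex alone *Cdh2* stood above *Pcdh9*, with mean levels of 29.9 and 25.4 CPM per kb, and in the thalamus the order was turned, with 16.5 and 32.2 CPM per kb. At the other end were *Celsr3* (0.473 CPM per kb) and the type II gene *Cdh19* (0.330 CPM per kb).

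**Figure D1:**
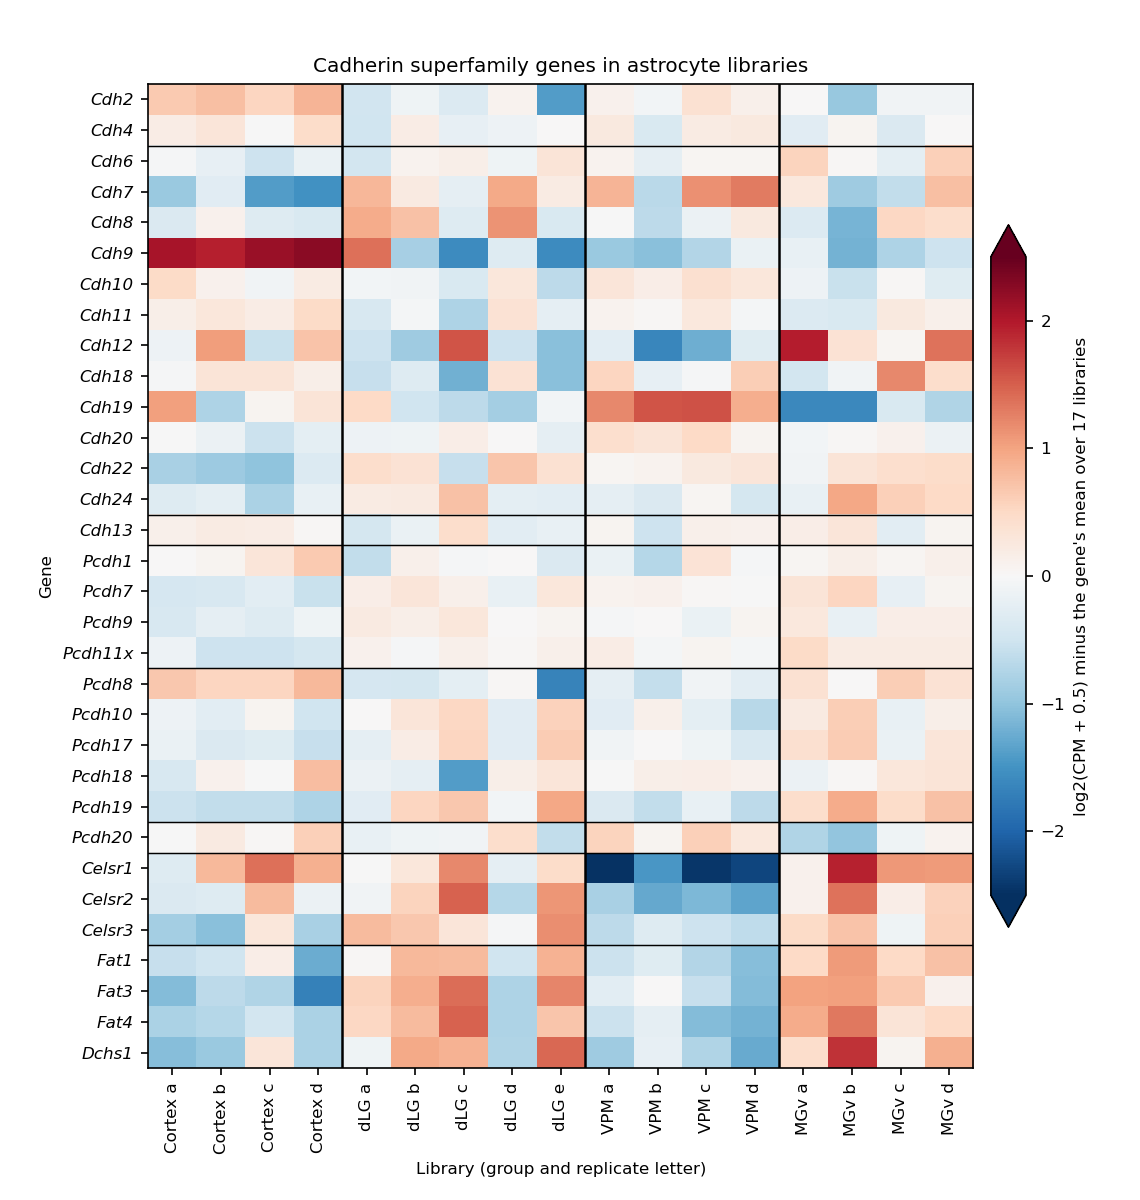
Levels of the 32 genes (rows, grouped by class) in each of the 17 libraries (columns, grouped by region), drawn as log2(CPM + 0.5) minus the gene's mean over all libraries. *Cdh9* is high in the 4 cortical columns, and *Celsr1* is low in the 4 VPM columns.

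The first comparison asked which of these adhesion genes distinguish thalamic from cortical astrocytes, with the 13 thalamic libraries taken as 1 group. Of the 32 genes, 7 were higher in the thalamus (21.9%, against 5.45% of the 17856 genes tested) and 3 were higher in the cortex (9.38%, against 5.93%), by edgeR's quasi-likelihood test at a Benjamini-Hochberg adjusted p under 0.1. The thalamic side held 3 of the 4 delta-1 protocadherins (*Pcdh7*, *Pcdh9*, *Pcdh11x*), the delta-2 protocadherin *Pcdh19*, the type II cadherins *Cdh7* and *Cdh22*, and *Fat3*. The cortical side held *Cdh2*, the type II cadherin *Cdh9* and the delta-2 protocadherin *Pcdh8*. The median log2 fold change, thalamus over cortex, was 0.31 over the 32 genes and 0.02 over all genes tested. Without adjustment 17 of the 32 genes had a p under 0.05 in this test, but the share of all genes at that threshold was not counted.

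**Figure D2:**
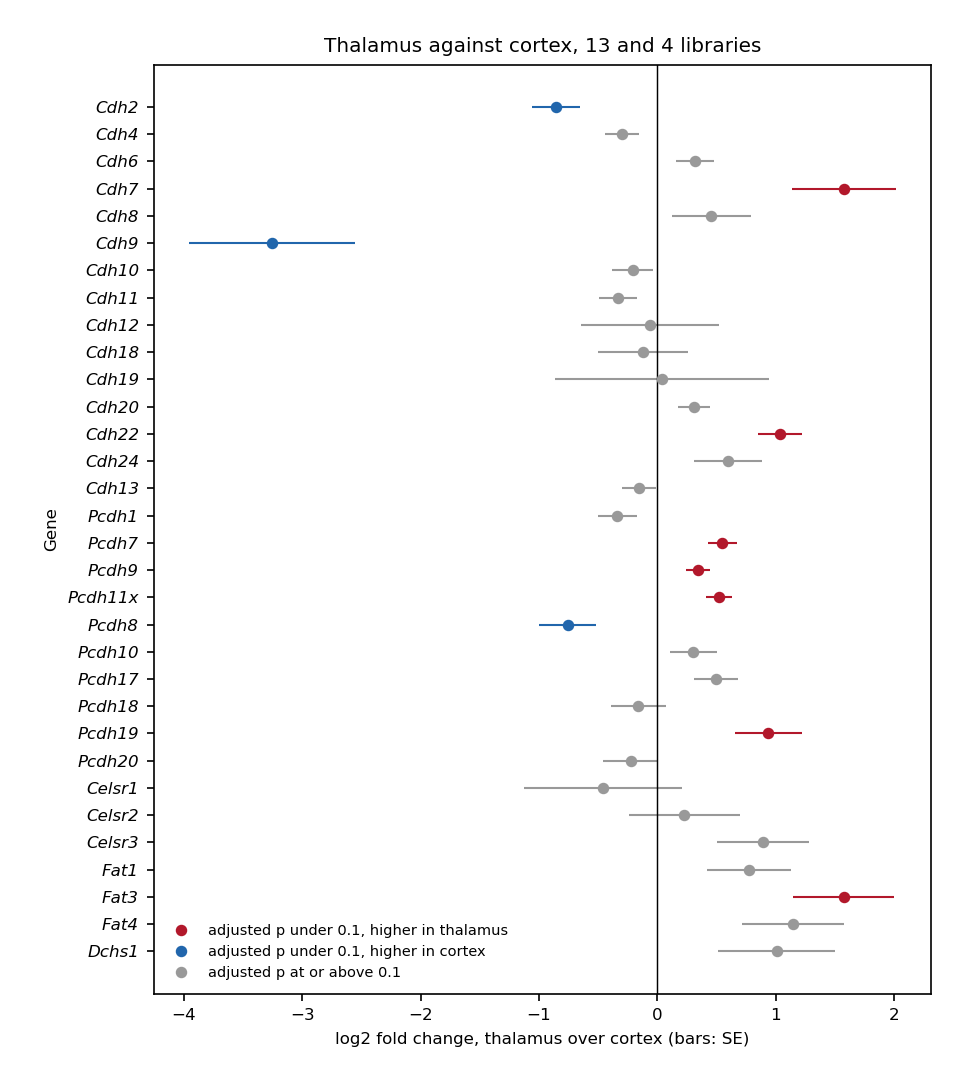
Log2 fold change of each of the 32 genes, thalamus (13 libraries) over cortex (4 libraries), with its standard error, from edgeR. Red points mark the 7 genes higher in the thalamus and blue points the 3 higher in the cortex at an adjusted p under 0.1, and the log2 fold changes run from -3.25 for *Cdh9* to 1.58 for *Cdh7*.

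*Cdh22*, a type II cadherin of the brain, had the smallest p of the genes higher in the thalamus. Cortical libraries a to d held 14.7, 13.6, 12.6 and 20.3 CPM. The lowest, median and highest of the 13 thalamic libraries were 17.3, 32.8 and 42.3 CPM. All thalamic libraries but dLG c lay above every cortical one. The mean rose from 15.3 ± 3.42 CPM in the cortex (SD, n = 4) to 31.4 ± 6.22 CPM in the thalamus (SD, n = 13), with a log2 fold change of 1.04 (SE 0.19, adjusted p = 0.00124) in edgeR's quasi-likelihood test.

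*Cdh7*, another type II cadherin, was a low-level transcript, with 2.7, 4.52, 1.83 and 1.64 CPM in cortical libraries a to d. Its thalamic libraries had a lowest, median and highest value of 2.8, 6.83 and 14.4 CPM. 10 of the 13 thalamic libraries lay above every cortical one, so the groups overlapped. The means were 2.67 ± 1.32 and 7.98 ± 3.84 CPM (SD, n = 4 and 13), and the edgeR fit gave a log2 fold change of 1.58 (SE 0.44, adjusted p = 0.0302). The call rested on cortical library d, without which the log2 fold change was 1.43 and the adjusted p was 0.12. Over all the alternatives tried the adjusted p lay between 0.00133 and 0.12.

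The type II cadherin *Cdh9*, known from synapse formation in the hippocampus, was the gene with the largest fold change among the 32. It read 5.77, 5.26, 6.18 and 6.66 CPM in cortical libraries a to d. In the thalamus its lowest, median and highest values were 0, 0.38 and 3.37 CPM, and 3 of the libraries held no more than 3 counts. Every thalamic library lay below every cortical one, and the nearest was dLG a at 3.37 CPM. The mean fell from 5.97 ± 0.596 CPM (SD, n = 4) to 0.619 ± 0.87 CPM (SD, n = 13), with a log2 fold change of -3.25 (SE 0.70, adjusted p = 0.00515) by edgeR. Thus the class that held *Cdh7* and *Cdh22* on the thalamic side held *Cdh9* on the cortical side, and the other 9 type II genes did not pass the test.

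*Cdh2* encodes N-cadherin, a principal classical cadherin of neural tissue. Its level was 233, 251, 216 and 265 CPM in cortical libraries a to d. The thalamic libraries had a lowest, median and highest value of 55.9, 139 and 194 CPM. There was no overlap between the groups, with 13 of 13 thalamic libraries below the lowest cortical one. The means were 241 ± 21.4 CPM for the cortex and 133 ± 37.1 CPM for the thalamus (SD, n = 4 and 13), with a log2 fold change of -0.85 (SE 0.20, adjusted p = 0.0112) in edgeR. *Cdh4* (R-cadherin), the other type I gene, had means of 53.9 ± 7.44 and 43.8 ± 7.79 CPM and did not pass the test (log2 fold change -0.30, SE 0.14, adjusted p = 0.238).

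Among the delta-1 protocadherins, *Pcdh11x* and *Pcdh7* were separated between the regions in all libraries. *Pcdh11x* read 161, 122, 123 and 129 CPM in cortical libraries a to d and a lowest, median and highest value of 169, 190.0 and 245 CPM in the thalamus. Its means were 134 ± 18.7 and 192 ± 20.1 CPM (SD, n = 4 and 13), with a log2 fold change of 0.52 (SE 0.11, adjusted p = 0.00367) by edgeR. For *Pcdh7* the cortical libraries held 103, 103, 115 and 93.3 CPM and the thalamic ones a lowest, median and highest value of 119, 149 and 200.3 CPM. The edgeR test gave *Pcdh7* a log2 fold change of 0.55 (SE 0.12, adjusted p = 0.0067), from means of 104 ± 8.69 and 152 ± 22.1 CPM (SD, n = 4 and 13). In the exons of *Pcdh7*, 21.1% of the bases are also exons of 4932441J04Rik on the other strand, and these libraries do not mark strand. Over all genes tested, 1.67% had every thalamic library above every cortical one, a separation shared by 2 of the 32 genes (*Pcdh7* and *Pcdh11x*), and 3.09% had every thalamic library below, shared by *Cdh2* and *Cdh9*.

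*Pcdh9*, the third delta-1 gene on the thalamic side, had a smaller fold change. Cortical libraries a to d held 155, 177, 165 and 192 CPM, and the lowest, median and highest of the thalamic libraries were 182, 217 and 251 CPM. 11 of the 13 thalamic libraries exceeded every cortical one. With means of 172 ± 15.8 and 219 ± 22.1 CPM (SD, n = 4 and 13) the edgeR test gave a log2 fold change of 0.35 (SE 0.10, adjusted p = 0.0432). This call did not hold without cortical library a, b or c, when the log2 fold change was 0.30, 0.36 and 0.34, and over all alternatives its adjusted p ran from 0.0112 to 0.174. The remaining delta-1 gene, *Pcdh1*, had 53 ± 11.3 CPM for the cortex and 41.9 ± 8.26 CPM for the thalamus (log2 fold change -0.34, SE 0.17, adjusted p = 0.252).

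The delta-2 protocadherins went in different directions. *Pcdh8*, also known as arcadlin and induced by neuronal activity, read 86.8, 79, 78.9 and 95 CPM in cortical libraries a to d and a lowest, median and highest value of 16.6, 46.3 and 83.5 CPM in the thalamus. All thalamic libraries but 1 lay below every cortical one. *Pcdh8* fell by 0.76 on the log2 scale from 85 ± 7.67 to 50.3 ± 17.3 CPM (SD, n = 4 and 13), with an SE of 0.24 and an adjusted p = 0.0607 in edgeR. *Pcdh19*, a partner of N-cadherin and the gene of an X-linked epilepsy, was higher in the thalamus, with means of 34.2 ± 2.36 CPM for the cortex and 65.5 ± 25.1 CPM for the thalamus (log2 fold change 0.94, SE 0.28, adjusted p = 0.0463). Its VPM libraries lay near the cortical ones, as described with the nuclei. Neither call held when any single cortical library was left out, with adjusted p between 0.00414 and 0.233 for *Pcdh8* and between 0.00397 and 0.147 for *Pcdh19* over all alternatives. *Pcdh10*, *Pcdh17* and *Pcdh18*, the other delta-2 genes, had log2 fold changes of 0.30, 0.50 and -0.16 and did not pass the test (adjusted p = 0.415, 0.116 and 0.75).

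Of the Celsr, Fat and Dachsous genes, *Fat3*, an atypical cadherin that shapes neuronal processes in the retina, was the one called between the regions. It read 7.02, 9.63, 9.05 and 4.44 CPM in cortical libraries a to d, and a lowest, median and highest value of 7.09, 23 and 41.9 CPM in the thalamus. 11 of the 13 thalamic libraries lay above every cortical one. Its means were 7.54 ± 2.35 and 22.4 ± 11.4 CPM (SD, n = 4 and 13), with a log2 fold change of 1.57 (SE 0.43, adjusted p = 0.026) by edgeR. Without cortical library d the log2 fold change was 1.43 and the call was lost (adjusted p = 0.121, in a range of 0.00149 to 0.121 over all alternatives).

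The remaining 22 genes did not pass the test between the regions. The largest fold changes among them were those of *Fat4* (log2 fold change 1.15, SE 0.43, adjusted p = 0.116), *Dchs1* (log2 fold change 1.01, SE 0.49, adjusted p = 0.25), *Celsr3* (log2 fold change 0.89, SE 0.39, adjusted p = 0.185) and *Fat1* (log2 fold change 0.77, SE 0.36, adjusted p = 0.219). Among the type II cadherins, *Cdh24* had a log2 fold change of 0.60 (adjusted p = 0.24), *Cdh8* of 0.45 (0.475), *Cdh6* of 0.32 (0.267), *Cdh20* of 0.31 (0.196), *Cdh10* of -0.21 (0.53) and *Cdh11* (OB-cadherin) of -0.33 (0.234). *Cdh12*, *Cdh18* and *Cdh19*, also of type II, had log2 fold changes of -0.06, -0.12 and 0.04. For *Cdh13* it was -0.15, for the protocadherin *Pcdh20* -0.23, for *Celsr1* -0.46 and for *Celsr2* 0.23. The direction for *Cdh12*, *Cdh19*, *Celsr2* and *Pcdh18* was not stable over the alternatives tried.

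The measured partners of the cadherins differed in both directions. Of 18 catenins and adaptors, 3 were higher (16.7%, against 5.45% of all genes) and 4 lower (22.2%, against 5.93%) in the thalamus. Those higher were *Pkp4*, an armadillo protein of junctions (log2 fold change 1.33, SE 0.29, adjusted p = 0.00535), *Ctnna3*, alphaT-catenin (3.26, adjusted p = 0.0141), and *Nectin1*, an immunoglobulin-type adhesion receptor (1.58, adjusted p = 0.0723). Among the 4 lower were *Vcl* (vinculin, -1.14, adjusted p = 0.00797), *Ctnnbip1*, an inhibitor of beta-catenin (-0.85, adjusted p = 0.00043), and the plakophilin *Pkp2* (-3.19, adjusted p = 0.0488). Of the exon bases of *Vcl* 25.5%, and of those of *Ctnnbip1* 25.8%, also belong to another gene. Of 18 planar polarity and Fat-Dachsous partners, *Lix1l* (1.52, adjusted p = 0.04), *Prickle2* (0.89, adjusted p = 0.0384) and *Vangl1* (0.68, adjusted p = 0.0735) were higher. *Fjx1*, a kinase family member of the Fat-Dachsous pathway (-0.84, adjusted p = 0.00123), and *Ankrd6* (-1.05, adjusted p = 0.0147) were lower. The shares of this list were 16.7% higher and 11.1% lower, against 5.45% and 5.93% of all genes. All these p-values are from the same edgeR fit.

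Markers of other cells moved with the regions as well. In the same edgeR fit 3 of 8 astrocyte markers were lower in the thalamus (*Slc1a3*, -1.72, *Aldoc*, -1.04, and *Slc1a2*, -1.16, on the log2 scale). They were 37.5% of the list, against 5.93% of all genes. Of 10 neuron markers 3 were higher (*Slc17a6*, 3.01, *Nefm*, 2.29, and *Nefl*, 1.96) and 1 was lower (*Rbfox3*, -1.21). These were 30% and 10%, against 5.45% and 5.93% of all genes. The mural marker *Pdgfrb* (-3.74), the ependymal marker *Foxj1* (-2.65) and the fibroblast marker *Col1a2* (-0.82) were lower, and *Dcn*, also of fibroblasts, was higher, while no oligodendrocyte lineage or microglia marker was called. Their part in the differences of the 10 adhesion genes was not tested. The library descriptions carry number series, whose meaning the labels do not give, and within each of the 2 series that hold cortical and thalamic libraries all 10 genes differed in the direction of the pooled fit.

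The second comparison asked whether the nuclei differ among themselves. Of the 32 genes, 10 differed among dLG, VPM and MGv (31.2%, against 9.43% of the 17319 genes tested) in edgeR's quasi-likelihood F test over the 13 thalamic libraries. These were the 3 Celsr genes, all 4 Fat and Dachsous genes measured, *Pcdh19*, *Pcdh8* and *Cdh19*. In the pairwise contrasts of the same fit, 8 genes were higher in the dLG than in the VPM (25%, against 6.48% of all genes) and 0 were higher in the VPM (against 3.16%, with 12 of the 32 at an unadjusted p under 0.05 in either direction). Compared with the MGv, 9 genes were lower in the VPM (28.1%, against 6.89%) and 2 were higher there (6.25%, against 4.53%). These pairs share the VPM libraries. Between dLG and MGv, 0 of the 32 genes were called by edgeR (against 0.647% of all genes in either direction), 2 had an unadjusted p under 0.05 (*Pcdh8* and *Cdh18*), and DESeq2 called 1 (*Pcdh8*). For the unadjusted counts in these pairs the share of all genes was not counted.

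*Celsr1*, a core planar cell polarity gene, had the largest fold change of the 32 genes between a pair of nuclei. VPM libraries a to d held 0.764, 2.06, 0.80 and 0.936 CPM. The dLG libraries a to e held 6.5, 8.02, 15.6, 5.47 and 9.08 CPM and the MGv libraries a to d 7.02, 26.2, 14.4 and 14.2 CPM. Every VPM library lay below every library of the other nuclei. The cortical libraries, at 5.14, 11.8, 17.7 and 12.4 CPM, were also all above the VPM. The mean of the dLG (8.93 ± 3.97 CPM, SD, n = 5) was 7.83 times and that of the MGv (15.5 ± 7.94 CPM, SD, n = 4) 13.5 times that of the VPM (1.14 ± 0.619 CPM, SD, n = 4). By edgeR the contrast of dLG over VPM had a log2 fold change of 3.00 (SE 0.46, adjusted p = 0.00426), and that of VPM over MGv a log2 fold change of -3.80 (SE 0.49, adjusted p = 0.000778).

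*Celsr2* read 19.8, 14.1, 15.8 and 13.7 CPM in VPM libraries a to d, 32.6, 51.6, 98.5, 21.2 and 75.8 CPM in dLG libraries a to e and 37.5, 90.7, 39.4 and 52.1 CPM in MGv libraries a to d. Its lowest dLG library, d, was close to the highest VPM library, and no VPM library reached the range of either other nucleus, while the ranges of dLG and MGv overlapped. The edgeR contrasts gave a log2 fold change of 1.85 (SE 0.39, adjusted p = 0.0216) for dLG over VPM and a log2 fold change of -1.83 (SE 0.41, adjusted p = 0.0194) for VPM over MGv. *Celsr3*, which guides axons in the forebrain, was at a lower level, with 3.06, 3.96, 3.4 and 3.1 CPM in the VPM, 9.21, 8.41, 6.37, 4.97 and 12.1 CPM in the dLG and 7.36, 8.65, 4.7 and 7.97 CPM in the MGv. Again no VPM library reached the other nuclei (log2 fold change 1.31, SE 0.31, adjusted p = 0.0306 for dLG over VPM, and log2 fold change -1.12, SE 0.32, adjusted p = 0.0521 for VPM over MGv, both by edgeR). Over all genes tested, 2.62% had every VPM library below every dLG and MGv library, which held for 3 of the 32 genes, *Celsr1*, *Celsr2* and *Celsr3*.

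Transcripts of the receptor Fat4 and of its ligand Dachsous 1 were both lower in the VPM. Both belong to a class of long, GC-rich genes that was lower in the VPM. With the correction for GC content and transcript length alone, described below, neither was called in a pair. *Fat4* read 14.4, 18.1, 9.76 and 9.01 CPM in VPM libraries a to d, 30.4, 36.8, 59.4, 12.1 and 34.7 CPM in dLG libraries a to e and 40.4, 53.4, 26.4 and 30.1 CPM in MGv libraries a to d. *Dchs1* read 17.7, 28.5, 19.6 and 13.5 CPM in the VPM, 30.7, 64.3, 61.3, 19.5 and 90.4 CPM in the dLG and 45.5, 117, 34.7 and 62.2 CPM in the MGv. For *Fat4*, dLG d lay among the VPM libraries and all other dLG libraries above them, and for *Dchs1* the ranges of dLG and VPM overlapped through the same library. The dLG mean was 2.7 times the VPM mean for *Fat4* and 2.68 times for *Dchs1*, and the MGv mean 2.93 and 3.27 times. In edgeR *Fat4* had a log2 fold change of 1.46 (SE 0.37, adjusted p = 0.0392) for dLG over VPM and a log2 fold change of -1.58 (SE 0.38, adjusted p = 0.0279) for VPM over MGv. *Dchs1* had a log2 fold change of 1.46 (SE 0.43, adjusted p = 0.0667) for dLG over VPM and a log2 fold change of -1.74 (SE 0.45, adjusted p = 0.0358) for VPM over MGv.

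*Fat1*, an atypical cadherin that organises actin at cell contacts, stood at 50.2, 58.7, 43.9 and 34.5 CPM in VPM libraries a to d, 74.5, 127, 126, 51.3 and 134 CPM in dLG libraries a to e and 103, 153, 103 and 121 CPM in MGv libraries a to d. All MGv libraries exceeded the VPM, and dLG d lay within its range. By edgeR the log2 fold change was 1.16 for dLG over VPM (SE 0.26, adjusted p = 0.028) and -1.39 for VPM over MGv (SE 0.28, adjusted p = 0.0111). *Fat3*, with means of 11.5 ± 3.68 CPM in the VPM, 28 ± 12.9 CPM in the dLG and 26.3 ± 7.25 CPM in the MGv (SD, n = 4, 5 and 4), was also lower in the VPM than in each of the others (log2 fold change 1.32, SE 0.37, adjusted p = 0.0587 for dLG over VPM, and log2 fold change -1.23, SE 0.39, adjusted p = 0.0733 for VPM over MGv, by edgeR). Its dLG library d, at 8.85 CPM, lay within the VPM range of 7.09 to 15.7 CPM. *Pcdh19* read 41.3, 34.5, 46.6 and 33.5 CPM in VPM libraries a to d, next to 36.6, 34.6, 34.4 and 31 CPM in the cortical libraries. It read 43.8, 77.3, 84.8, 50.4 and 104 CPM in the dLG and 72, 102, 73 and 88.9 CPM in the MGv. Here too all MGv libraries lay above the VPM, and dLG a lay within its range. The contrasts had a log2 fold change of 0.92 (SE 0.23, adjusted p = 0.0383) for dLG over VPM and a log2 fold change of -1.14 (SE 0.24, adjusted p = 0.0149) for VPM over MGv in edgeR.

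**Figure D3:**
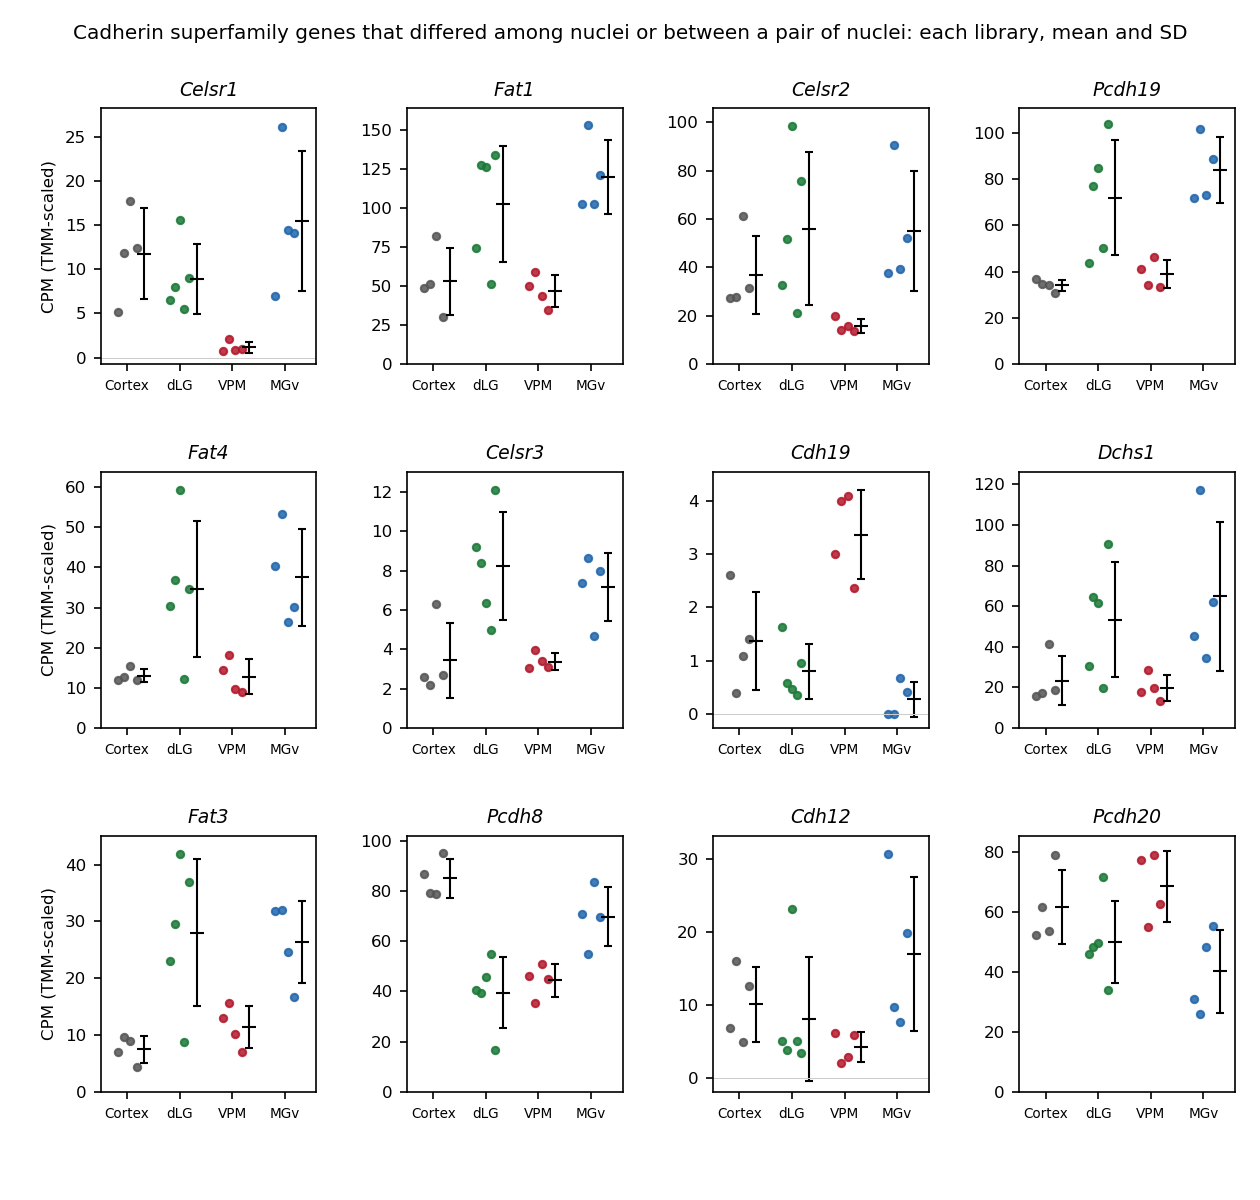
CPM of the genes called among the nuclei, and of *Cdh12* and *Pcdh20*, called only between VPM and MGv. Each library is 1 point, grouped as cortex, dLG, VPM and MGv, with a bar at each group's mean and its SD. The VPM points of the Celsr, Fat, *Dchs1* and *Pcdh19* panels lie at the low end of the thalamic points. Those of *Cdh19* (2.36 to 4.1 CPM) lie above all dLG and MGv points.

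Of the 9 genes that were lower in the VPM than in the MGv, all but *Cdh12* have a transcript over 8 kb, and 6 of them (*Celsr1*, *Celsr2*, *Celsr3*, *Fat1*, *Fat4* and *Dchs1*) are among the 256 tested genes whose longest transcript exceeds 8 kb with a GC content above 50%. As a class these 256 genes had a median log2 fold change of 0.79 for dLG over VPM and of -0.88 for VPM over MGv. Of them 44.9% were called higher in the dLG than in the VPM and 47.7% lower in the VPM than in the MGv. The median deviation of the 250 genes of the class that are not among the 32 was -0.40 to -0.15 in the VPM libraries, 0.18 to 0.72 in the MGv libraries, -0.25 (dLG d) to 0.70 in the dLG libraries and -0.37 to 0.00 in the cortical ones, on the log2 scale. Within the class *Celsr1* had the lowest log2 fold change of all 256 genes for VPM over MGv, and 3 genes had a higher one for dLG over VPM. *Pcdh19* and *Fat3*, of lower GC content, belong to the 645 other genes over 8 kb, whose median log2 fold change was 0.30 for dLG over VPM.

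The fit was therefore repeated with each library's trend over GC content and transcript length as an offset, an alternative added after the data were seen. Among the nuclei the genes called went from 10 to 3 (*Celsr1*, *Cdh19* and *Cdh4*), against 7.48% of all genes. *Celsr1* was still higher in the dLG (log2 fold change 1.98, adjusted p = 0.00668 by edgeR) and lower in the VPM than in the MGv (-2.62, adjusted p = 0.000825). *Celsr2* kept a smaller difference between dLG and VPM (0.72, adjusted p = 0.0708), so that 2 of the 32 genes were higher in the dLG (against 3.07% of all genes). The call of *Celsr2* for VPM over MGv was lost (-0.64, adjusted p = 0.103). *Fat1* and *Pcdh19* remained lower in the VPM than in the MGv (-0.46 and -0.60, adjusted p = 0.0762 for both), making 3 such genes with *Celsr1* (against 3.3% of all genes). For dLG over VPM the calls of *Fat1* (0.29, adjusted p = 0.251) and *Pcdh19* (0.39, 0.238) were lost. *Celsr3* (log2 fold change 0.33, adjusted p = 0.542 for dLG over VPM), *Fat4* (0.62, 0.154), *Dchs1* (0.35, 0.419) and *Fat3* (0.67, 0.188) were no longer called in either pair. For VPM over MGv their corrected log2 fold changes were -0.69 for *Fat4* (adjusted p = 0.113), -0.54 for *Dchs1* (0.226), -0.57 for *Fat3* (0.281) and 0.0175 for *Celsr3* (0.983), which thus turned its sign. With the replicate letter as a block beside the correction, the calls of *Fat4* (-0.71, adjusted p = 0.065), *Dchs1* (-0.54, 0.0718) and *Fat3* (-0.57, 0.0848) for VPM over MGv were present again, and that of *Celsr2* for dLG over VPM was lost. *Cdh4* became higher in the VPM than in the dLG (-0.68 for dLG over VPM, adjusted p = 0.0313), the 1 gene in that direction (against 3.03% of all genes), and 3 genes were higher in the VPM than in the MGv (*Cdh19*, *Cdh4* and *Pcdh20*, against 4.75%). The part of transcript length and GC content in the uncorrected differences was not tested beyond these fits.

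**Figure D4:**
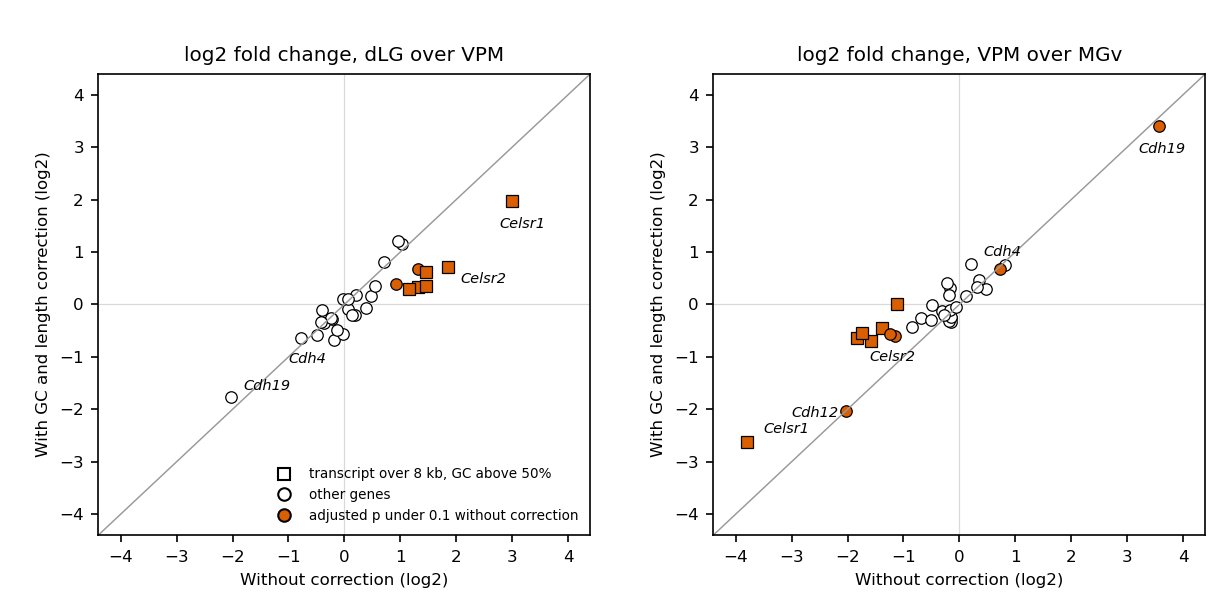
Log2 fold change of each of the 32 genes without (horizontal axis) and with (vertical axis) the correction for GC content and transcript length, for dLG over VPM (left) and VPM over MGv (right), with a line at equal values. Squares mark the 6 genes with transcripts over 8 kb and GC above 50%, which all lie nearer to 0 on the vertical axis, with *Celsr1* at -2.62 for VPM over MGv.

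The differences between thalamus and cortex kept their calls with this correction. All 7 genes higher in the thalamus and all 3 higher in the cortex were called, and *Cdh20* joined the former (0.39, adjusted p = 0.0881 by edgeR) and *Pcdh1* the latter (-0.54, adjusted p = 0.0769). With the replicate letter as a block beside the correction, *Pcdh9* (0.30, adjusted p = 0.114) and *Pcdh19* (0.50, 0.116) lost their calls. The correction alone made 8 genes higher in the thalamus (against 5.93% of all genes) and 4 higher in the cortex (against 6.78%). The log2 fold change of *Pcdh7* was 0.32 in place of 0.55, that of *Pcdh19* 0.55 in place of 0.94 and that of *Fat3* 1.05 in place of 1.57.

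Among the type II cadherins, *Cdh19* and *Cdh12* differed between nuclei. *Cdh19*, a gene of the Schwann cell and oligodendrocyte lineages with a transcript of low level, was highest in the VPM, at 3.01, 4.01, 4.1 and 2.36 CPM in libraries a to d. The dLG libraries a to e held 1.64, 0.573, 0.472, 0.348 and 0.958 CPM and the MGv libraries a to d 0, 0, 0.665 and 0.408 CPM, of which a and b had no count. All VPM libraries lay above all dLG and MGv libraries, a separation found in 1 of the 32 genes. Its share over all genes was not counted. The cortical libraries, at 2.61, 0.393, 1.09 and 1.4 CPM, reached into the VPM range. The edgeR contrast of VPM over MGv had a log2 fold change of 3.58 (SE 0.97, adjusted p = 0.0441), and its corrected log2 fold change was 3.40 (adjusted p = 0.0529). Without VPM library a or c this call was lost (log2 fold change 3.63 and 3.49, with adjusted p between 0.000393 and 0.114 over all alternatives). Its call over all 3 nuclei was lost with the replicate letter as a block (adjusted p = 0.111), and without dLG b, MGv d or any VPM library. Of the 7 oligodendrocyte lineage markers 2 were higher and 2 lower in the VPM than in the MGv. Each was 28.6%, against 4.53% and 6.89% of all genes. With the correction 4 were higher and none lower, against 4.75% and 3.3% of all genes. *Mbp* (1.39, adjusted p = 0.0361 by edgeR) was among the higher ones, while *Cspg4* (-1.11, adjusted p = 0.0787) and *Pdgfra* (-0.43, adjusted p = 0.0909) were lower. The part of these markers in the *Cdh19* difference was not tested.

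*Cdh12*, a type II cadherin of neurons, was lower in the VPM (4.25 ± 2.07 CPM, SD, n = 4) than in the MGv (17 ± 10.5 CPM, SD, n = 4) by edgeR (log2 fold change -2.03, SE 0.63, adjusted p = 0.0703), a call that was lost without any single VPM library or without MGv a or d (adjusted p from 0.00995 to 0.188 over all alternatives). The call was also lost with the correction for GC content and transcript length, at a corrected log2 fold change of -2.03 (adjusted p = 0.109). In the dLG it read 5.1, 3.82, 23.1, 5.07 and 3.38 CPM in libraries a to e, so that library c stood apart from the rest. *Pcdh20* was higher in the VPM (68.5 ± 11.7 CPM) than in the MGv (40.2 ± 13.9 CPM, SD, n = 4 each), with a log2 fold change of 0.73 (SE 0.24, adjusted p = 0.0892) in edgeR, lost without any of VPM a, c and d, MGv a and b, and dLG a and b (adjusted p from 0.0212 to 0.221). *Pcdh8* was called in the test over all nuclei (adjusted p = 0.0969 by edgeR) but in no pair, and this call held in 3 of the 13 fits with a library left out (those without dLG c, d or e) and was lost with the correction, with the number series as a covariate and with no filter on low counts (adjusted p up to 0.272). Its means were 39.5 ± 14.2 CPM in the dLG, 44.4 ± 6.4 CPM in the VPM and 69.7 ± 11.7 CPM in the MGv (SD, n = 5, 4 and 4), and its log2 fold change for dLG over MGv was -0.83 (adjusted p = 0.288).

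The calls among the nuclei depended on the VPM libraries, of which there were 4. *Celsr1* was called in each pair with the VPM whichever of the 13 libraries was left out. *Fat1* lost its call for dLG over VPM without VPM c (log2 fold change 1.11, in a range of adjusted p from 0.000771 to 0.389 over all alternatives). *Celsr3* lost that call without VPM a or c, *Pcdh19* without VPM a or d, *Fat4* without VPM a, c or d, and *Dchs1* and *Fat3* without any of VPM a, c and d and dLG b, c and e. Their log2 fold changes for dLG over VPM stayed positive, at 0.25 to 1.45 for *Celsr3*, 0.28 to 1.04 for *Pcdh19*, 0.62 to 1.68 for *Fat4*, 0.22 to 1.68 for *Dchs1* and 0.55 to 1.55 for *Fat3* over all alternatives. For VPM over MGv, *Fat4* lost its call without VPM c, *Dchs1* without VPM a, c or d or MGv b, *Celsr3* without VPM a, c or d or MGv b or d, and *Fat3* without VPM a, c or d or MGv a, b or c. All 8 genes higher in the dLG than in the VPM differed in that direction within each of the 2 number series that hold libraries of both nuclei, but with the number series as a covariate *Dchs1* and *Fat3* (adjusted p = 0.126 for both) and *Fat4* (adjusted p = 0.1001) lost this call. Library dLG c is the only one of its series, and the MGv libraries belong to a single series.

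Planar polarity genes outside the cadherins moved with the Celsr genes in part. Of the 18 planar polarity and Fat-Dachsous partners 7 differed among the nuclei (38.9%, against 9.43% of all genes) and 3 did with the correction (against 7.48% of all genes). *Vangl2*, a core partner of Celsr1, was higher in the dLG than in the VPM (log2 fold change 0.67, SE 0.18, adjusted p = 0.0512), and its corrected log2 fold change was 0.18 (adjusted p = 0.42 by edgeR). *Scrib*, a polarity scaffold, was lower in the VPM than in the MGv (-1.55, adjusted p = 0.0113), also with the correction (-0.78, adjusted p = 0.0374). *Lix1*, a homologue of a Fat-Dachsous pathway gene of flies, was higher in the MGv than in either of the other nuclei (-3.31 for dLG over MGv, adjusted p = 0.0102, and -2.66 for VPM over MGv, adjusted p = 0.0174). Of the 18 catenins and adaptors 6 differed among the nuclei (33.3%, against the same shares of all genes) and 3 with the correction, led by *Pkp4*, lower in the VPM than in the MGv (-1.19, adjusted p = 0.00498 by edgeR).

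Other cell types' markers also differed among the nuclei. The microglia markers summed to 7.31 to 55.5 CPM in the dLG, 4.20 to 7.93 CPM in the VPM and 10.2 to 36.1 CPM in the MGv, with 3 of 5 called among the nuclei (*Cx3cr1*, *Csf1r* and *Tmem119*) and *Aif1* and *C1qa* at no more than 3 counts in some libraries. Of 10 neuron markers, *Slc17a7* and *Nefm* were called, and the neuron list summed to 1028 to 1452 CPM in the dLG, 511 to 1561 CPM in the VPM and 444 to 1627 CPM in the MGv. Of 8 astrocyte markers, *Gfap*, *Sox9* and *Gja1* were called. The called shares were 60% of the microglia, 20% of the neuron and 37.5% of the astrocyte markers, against 9.43% of all genes. Their part in the differences of the adhesion genes was not tested. Of the 32 genes, 13 were called in none of these comparisons without the correction, namely *Cdh4*, *Cdh6*, *Cdh8*, *Cdh10*, *Cdh11*, *Cdh13*, *Cdh18*, *Cdh20*, *Cdh24*, *Pcdh1*, *Pcdh10*, *Pcdh17* and *Pcdh18*.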

How the data were processed

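RNA was measured in 17 libraries of sorted *Gfap::GFP* astrocytes, each from 4 pooled P7 brains and read as 50-base single ends, unstranded by kit. Per the labels and the study's methods, the authors checked reads with FastQC 0.11.7, trimmed adapters, mapped to GRCm38/mm10 with STAR 2.7.0d, sorted alignments with SAMtools 1.9 and deposited raw counts per Ensembl gene from featureCounts (Subread 1.6.4). The strand setting of the counting is not given in the sources used here. Reads shared by near-identical genes or overlapping exons cannot be assigned with certainty from such counts.

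From the deposited counts, edgeR 4.0.16 (R 4.3.3) fitted a robust quasi-likelihood model with TMM factors and its default filter on low counts, and p-values were adjusted by Benjamini-Hochberg over all genes tested, with a threshold of 0.1. Thalamus (13 libraries) was set against cortex (4), and dLG, VPM and MGv were compared in a fit of the thalamic libraries. The standard error is the log2 fold change divided by the square root of F. CPM used library totals of 18213687 to 50366363 counts, multiplied by their TMM factors, and this depth sets counting error only. Of the gene IDs, 26548 matched GENCODE M21, which gave names, lengths, GC content and coding sequence. The scripts were tested on simulated counts.

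Described with all values were called genes, and with every library the 6 called genes of lowest p in each direction between regions and the 8 among nuclei. From the lists of partners at most 3 called genes a direction were named. The genes and lists were chosen with earlier results of these data known. Alternatives were DESeq2 1.42.0, its size factors, other filters, a threshold of 0.05, the replicate letter as a block, the number series in the model, all 4 groups in 1 fit and leaving out each library. A loess correction of each library for GC content and length of the longest transcript, also with the block, was added after the data were seen. Replicate letters recur in all groups, and the labels do not say whether they mark shared brains. Libraries of the same letter did not deviate together as a rule (correlations of -0.17 to 0.27 over 24 pairs, median 0.02, with 6 over 0.1). Those of letter d were all positively correlated (0.0261 to 0.256). The single-gene values of some marker genes are not reported here.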

Additional observations from a re-analysis of the deposited data

Results flagged for a closer look

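In 8 of 76 groups of 4 or 5 libraries tested, the highest or lowest library stood apart from the rest by Dixon's criterion, which chance meets in about 1 of 20 groups. *Cdh2* in MGv b was 76.7 CPM, below 139 to 150 CPM in the other MGv libraries. *Cdh9* in dLG a was 3.37 CPM, above 0 to 0.696 CPM in the other dLG libraries. *Cdh12* in dLG c was 23.1 CPM, above 3.38 to 5.10 CPM in the rest of the dLG. *Pcdh11x* in MGv a was 245 CPM, above 201 to 202 CPM, and *Celsr1* in VPM b was 2.06 CPM, above 0.764 to 0.936 CPM. Cortical library c was highest for *Celsr2* (61.0 CPM, the others 27.2 to 31.6 CPM), *Celsr3* (6.28 CPM, the others 2.21 to 2.7 CPM) and *Dchs1* (41.2 CPM, the others 15.6 to 18.9 CPM). *Celsr2*, *Celsr3* and *Dchs1* are all of the long, GC-rich class, so these flags may not be independent. The median deviation of that class was 0.00 in cortical library c and -0.37 to -0.29 in the other cortical libraries. Its part in these flags was not tested.

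In several genes the difference from the cortex had opposite signs in a pair of nuclei that differed from one another by edgeR. The differences from the cortex are between group means of log2(CPM + 0.5). They are not edgeR contrasts, so they need not add up to the fold changes between nuclei. The difference of a single nucleus from the cortex was not tested, and in the VPM it lay near 0 for *Fat1*, *Fat4* and *Dchs1*. *Celsr1* differed by -3.80 on the log2 scale between VPM and MGv in edgeR. Its differences to the cortex were -2.85 in the VPM and 0.36 in the MGv. *Celsr2* differed by -1.83 between VPM and MGv and by 1.85 between dLG and VPM (from the cortex, -1.13 in the VPM, 0.56 in the MGv and 0.47 in the dLG). *Fat1* differed by -1.39 and 1.16 in the same pairs (-0.12 in the VPM, 1.23 in the MGv and 0.94 in the dLG), *Fat4* by -1.58 and 1.46 (-0.07, 1.45 and 1.22) and *Dchs1* by -1.74 and 1.46 (-0.15, 1.43 and 1.10). *Cdh12* differed by -2.03 between VPM and MGv (-1.13 and 0.66 from the cortex). In *Cdh19* (3.58, VPM over MGv) and *Pcdh20* (0.73) the VPM lay above the cortex and the MGv below it, by 1.16 and -1.25 and by 0.16 and -0.66.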

How the results depend on the processing

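The counts between regions stayed within 6 to 10 genes higher in the thalamus and 2 to 4 higher in the cortex over the alternatives that kept all libraries, and ran from 4 (without cortical library d) to 9 and from 2 to 3 with a library left out. *Cdh22*, *Pcdh11x*, *Pcdh7*, *Cdh9* and *Cdh2* kept their calls whichever library was left out. Among the nuclei the count of 10 became 6 at an adjusted p under 0.05, 3 with the correction for GC content and transcript length, 3 with correction and block, and 2 (without VPM d) to 13 (without dLG d) with a library left out, at 6 without dLG b and 4 without VPM a or c. Between dLG and VPM the count of 8 became 5 with the number series as a covariate, 3 with the correction, 2 with correction and block, and 3 to 12 with a library left out, at 3 without VPM a or c and 4 without VPM d. Between dLG and MGv it became 1 with DESeq2, 1 with the block, and 0 to 1 with a library left out (*Cdh12*, without dLG c). Between VPM and MGv the count of 11 became 7 at 0.05, 6 with the correction, 10 with correction and block (9 of them among the 11), and 4 (without VPM c) to 13 with a library left out, at 5 without VPM a, 6 without VPM d and 7 without MGv b. The causes of these changes were not tested.

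With the replicate letter as a block, 7 and 3 genes were called between the regions and 10 among the nuclei, of which 9 were among the 10 without it (*Cdh19* was lost and *Pcdh20* gained), and 4 of 16 libraries correlated best with a library of their own letter. Some directions turned, that of *Celsr3* being the 1 called in the uncorrected fit. *Celsr2* between regions was -0.0153 in a fit of 4 groups, -0.49 with the correction and -0.50 with correction and block. *Celsr3* between VPM and MGv was 0.0175 with the correction and 0.0528 with correction and block, and *Cdh19* between regions was -0.62 in the fit of 4 groups. With a library left out, *Cdh19* ran from -0.26 to 0.57, *Cdh12* from -0.33 to 0.25 and *Pcdh18* from -0.32 to 0.14. Over all results on single genes and all alternatives, 1326 stayed on their side of the threshold, 161 lost it, 20 gained it and 20 reversed.

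Over all genes, calls among the nuclei went from 1634 to 3283 with DESeq2, 2586 in the fit of 4 groups and 845 at 0.05. Between dLG and VPM they went from 1670 to 3051 with DESeq2, 705 at 0.05, 1079 with the block, 814 with the number series, 1056 with the correction and 683 with correction and block. Between VPM and MGv they went from 1979 to 3205 with DESeq2 and 958 at 0.05, and between dLG and MGv from 112 to 345 with DESeq2, 64 with the number series and 183 in the fit of 4 groups. *Cdh9* and *Cdh19* were not tested where at least 10 counts were asked of every library. Depth limits *Cdh19* and *Cdh9*, some of whose libraries hold no more than 3 counts.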

Other observations

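The clustered protocadherins, whose combinations give neurons single-cell identities, were tested in the same fits. Of 53 tested between the regions, 3 were called by edgeR's quasi-likelihood test, all of them higher in the thalamus (5.66%, against 5.45% of all genes). They were *Pcdhb22* (0.74 on the log2 scale, adjusted p = 0.021), *Pcdhb18* (0.83, adjusted p = 0.0366) and *Pcdhac2* (0.91, adjusted p = 0.0701). Among the nuclei 1 was called (1.89%, against 9.43% of all genes), *Pcdhac1*, higher in the dLG than in the VPM (1.39, adjusted p = 0.0438). Genes of the alpha and gamma clusters share exons, with 48.6% of the exon bases of *Pcdhac2* and 52.8% of those of *Pcdhac1* also belonging to another gene, so their counts are uncertain.

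Among the other cadherin superfamily genes measured, which include desmosomal cadherins and the calsyntenins, 11 were tested between the regions and 9 among the nuclei. Called by edgeR were 0 of the 11 between the regions (against 5.45% of all genes higher and 5.93% lower in the thalamus). Over all nuclei 0 of the 9 were called (against 9.43% of all genes). In the pairs of nuclei *Clstn2* was higher in the dLG than in the VPM (1.30, adjusted p = 0.0614 by edgeR) and *Pcdh15* lower in the VPM than in the MGv (-0.59, adjusted p = 0.0717). Each was 1 of 9 genes (11.1%), against 6.48% and 6.89% of all genes. Neither was called with the correction for GC content and transcript length (adjusted p = 0.106 and 0.348).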
